A study of Rattus norvegicus and Mus musculus with 56 samples.

Results

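Potassium channels and hyperpolarization-activated cyclic nucleotide-gated (HCN) channels were followed in the mouse dorsal horn after nerve injury. The set held 41 genes, listed by symbol and matched by Ensembl identifier, of 41388 gene identifiers in the mouse tables. All 41 were found, and all 41 passed the filter on low counts in every comparison. The symbols were listed by name and function, not by a threshold on these values.

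Poly(A) RNA was sequenced from the dorsal horn of lumbar segments L4 and L5, where sensory fibres of the hind limb end, in 24 libraries of wild-type C57BL/6 mice. Females and males had either spared nerve injury (SNI), a neuropathic pain model that cuts some sciatic nerve branches and spares another, or sham surgery, and tissue was taken on postoperative day 7. The operated (ipsilateral) and the unoperated (contralateral) sides were sequenced separately. Sex, side and surgery gave 8 groups of 3 libraries, so each side and surgery held 6. Age was not given in the labels. Because the labels do not say how many animals a library holds or which libraries share an animal, p-values measure the spread between libraries only. Between 27.98 and 42.9 M reads of a library fell on genes (median 32.6 M, with M for mega).

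Potassium channels let potassium leave the neuron, which holds the membrane negative and ends the action potential, while HCN channels pass an inward cation current when the membrane is hyperpolarized. Voltage-gated (Kv), inwardly rectifying (Kir), calcium- or sodium-activated and tandem-pore-domain leak (K2P) families differ in what opens them, and cytosolic auxiliary subunits set the amount and timing of the current. In the dorsal horn, A-type and leak currents are known to limit how readily neurons fire to sensory input, and microglia, the resident macrophages of the spinal cord, carry potassium channels of their own.

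The channel-forming members share the signature of the potassium selectivity filter, glycine, tyrosine or phenylalanine, then glycine, in the pore loop. An in-frame match to these 3 codons was searched in the longest coding sequence of each member, as GGN, then TAT, TAC, TTT or TTC, then GGN, on the coding strand. It was found in 36 of 41 members, against 2909 of 22101 genes with a coding sequence (13.2%). The 5 members without a match were the auxiliary subunit genes Kcnab1, Kcnab2, Kcnip1, Kcnip2 and Kcnip4. Of the 36, 29 held 1 match and 7 held 2. The 7 were the K2P genes Kcnk2, Kcnk3, Kcnk9 and Kcnk13 together with Hcn4, Kcnj2 and Kcnq3, while the K2P genes Kcnk1 and Kcnk6 held 1. Whether a match lies in a pore loop was not checked, so the count of matches is not a count of pore loops. The sequences of 5 members are shown because the results turn on these genes. Each is 33 bases of coding strand, 5′ to 3′, from the GRCm38 annotation, with the 9 matching bases in capitals.
Kcnk6: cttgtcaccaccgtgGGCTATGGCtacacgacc
Kcnk3, first match: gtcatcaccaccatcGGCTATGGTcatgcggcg
Kcnk3, second match: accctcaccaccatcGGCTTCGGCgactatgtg
Kcna1: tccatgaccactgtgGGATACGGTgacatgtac
Kcna2: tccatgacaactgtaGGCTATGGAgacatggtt
Kcns3: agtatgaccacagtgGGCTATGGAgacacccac
K2P subunits carry a pair of pore loops. The search found 2 matches in Kcnk3 and 1 in Kcnk6, at coding bases 322 to 330.

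Levels are given as CPM (counts scaled to a common total of gene reads) after TMM scaling, and between genes only as CPM per kb of exon. Kcna1, which encodes a low-threshold Kv1 subunit of axons, stood highest at 135 CPM per kb (range 94.6 to 186 over 24 libraries). Hcn2, the HCN gene with the highest level here, followed at 103 (64.0 to 153), and Kcnab2, a cytosolic Kv1 beta subunit, at 92.9 (70.1 to 126). These 3 overlapped one another across libraries, and each stood above Kcnk1, a K2P leak channel gene, at 40.6 (33.2 to 53.6). At the other end, Kcnj6, a G protein-gated Kir subunit, had 1.58 CPM per kb (1.2 to 2.15). Kcnk6 had 1.05 (0.551 to 2.20), and Kcnn4, a calcium-activated channel of immune and red blood cells, 0.0941 (0.0416 to 0.30).

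In all, 8 members had a mean above 20 CPM per kb, 32 lay between 1 and 20, and Kcnn4 alone lay under 1. Of the 40 pairs of neighbours in the order of means, 6 kept that order in all 24 libraries, so most neighbours overlapped. Within a gene the libraries lay close together. The highest library was a median of 1.61 times the lowest over the 41 members, and in 36 members less than 2 times. Apart from Kcnn4, which had as few as 8 reads in a library, the widest ranges were those of Kcnk6 (3.99 times), Hcn2 (2.39 times) and Kcnip2 (2.31 times), followed by Kcnk3 (2.24 times).

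**Figure D1:**
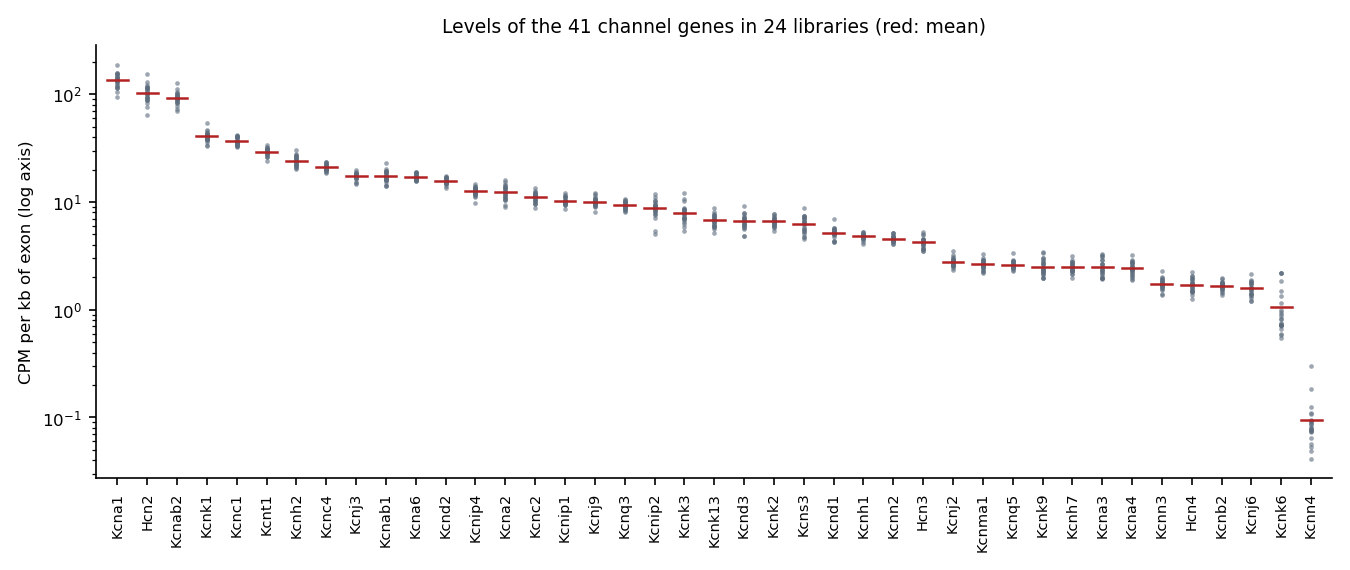
Level of each of the 41 channel genes in CPM per kb of exon (vertical axis, logarithmic), 1 grey point for each of 24 libraries and a red bar at the mean, ordered from Kcna1 (135) to Kcnn4 (0.0941). Most genes span a narrow range of libraries, and Kcnk6 and Kcnn4 are the lowest and the most spread.

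On the operated side, the comparison of SNI with sham asks which channel genes respond to the nerve injury. Kcnk6 rose, and no other member passed the test. Kcnk6 (ENSMUSG00000046410, chromosome 7, 29221926 to 29232515 of GRCm38, minus strand) encodes the K2P channel TWIK2, known in mouse macrophages as a path for potassium efflux. After SNI the operated side had 9.10, 9.01 and 9.13 CPM in males and 5.51, 7.72 and 6.13 CPM in females. After sham it had 3.63, 4.76 and 3.08 CPM in males and 4.17, 2.98 and 2.92 CPM in females. All 6 SNI libraries stood above all 6 sham libraries, and above all 12 libraries of the unoperated side, where the level was 2.29 to 3.93 CPM. The means were 7.77 ± 1.61 and 3.59 ± 0.745 CPM (SD, n = 6 each), a log2 fold change of 1.09 (SE 0.12, limma adjusted p = 9.51e-05), or 2.14-fold. Females changed by 0.94 and males by 1.25 on the log2 scale. Without the 8 libraries titled 49 to 56, which leaves 3 SNI and 5 sham libraries, the change was 1.07 with an adjusted p of 0.0667.

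The count of called members was 1 of 41, where 2.07% of all 17602 genes tested were called, so the share of members called was near that of all genes. At an unadjusted p under 0.05 there were 7 of 41 members, against 12% of all genes. The median log2 fold change of the 41 was -0.01, and that of all genes was -0.00. For each of the other 40 members the 95% interval lay within a 2-fold change, and for 39 of them within a 1.5-fold change. The exception to the narrower limit was Kcnn4.

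Microglial transcripts moved with Kcnk6. Of 17 microglia markers, 16 were called higher on the operated side after SNI, with a median log2 fold change of 1.11 beside the 1.09 of Kcnk6, and none was at 0. Their summed level was 858 to 1332 CPM in the 6 SNI libraries and 513 to 636 CPM in the 6 sham libraries, so these groups did not overlap either. Female SNI library 1, lowest in Kcnk6 within its group, was also the lowest in these markers. With group means removed, Kcnk6 correlated with the mean microglia level at r = 0.39 over 24 libraries, which share tissue and sequencing. In bulk tissue, more cells of a type and more RNA per cell cannot be told apart, and the part of microglia in the Kcnk6 result was not tested.

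Other channel genes linked to immune cells were not called. Kcnk13 encodes THIK1, a K2P channel known as a main potassium conductance of resting microglia. It ranged from 19 to 27.2 CPM after SNI (median 22) and from 18.7 to 24.9 CPM after sham (median 23.1). The groups overlapped almost fully, with a log2 fold change of -0.02 (95% interval -0.20 to 0.16). With group means removed, Kcnk13 had r = 0.87 with the oligodendrocyte level and r = 0.67 with the microglia level over 24 libraries. Kcnn4 ranged from 0.213 to 0.487 CPM after SNI (median 0.331) and from 0.290 to 0.949 CPM after sham (median 0.426), with overlapping groups and a log2 fold change of -0.43 (95% interval -0.99 to 0.13). Its highest values, 1.53 and 0.949 CPM, were in male SNI library 3 of the unoperated side and female sham library 1 of the operated side, which also had the highest neutrophil marker levels.

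**Figure D2:**
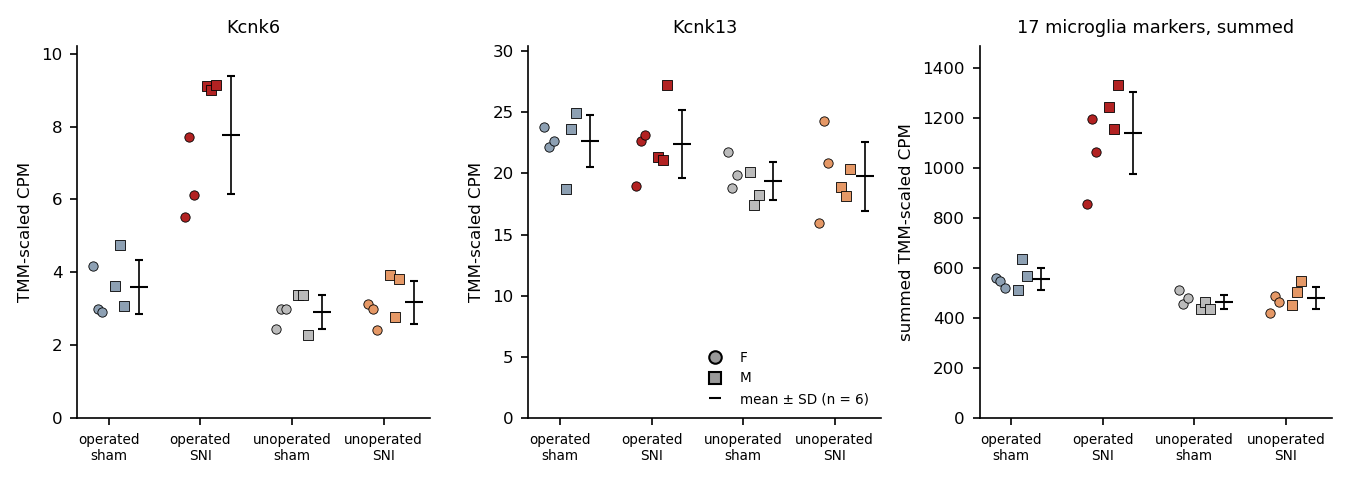
TMM-scaled CPM of Kcnk6, of Kcnk13 and of 17 microglia markers summed (vertical axes from 0), by side and surgery, with circles for female and squares for male libraries and bars for mean ± SD (n = 6). Kcnk6 and the microglia sum are higher in the 6 operated-side SNI libraries than in all other libraries, while Kcnk13 overlaps between SNI and sham.

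Among the other K2P leak channel genes, log2 fold changes on the operated side lay between -0.14 and 0.09 and none was called. Kcnk3, the acid-sensitive leak channel TASK1, ranged from 21.6 to 30.7 CPM after SNI (median 28.5) and from 24.9 to 33.9 CPM after sham (median 30.4), with overlapping groups.

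In the Kv1 and beta subunit group, none of 7 members was called, with log2 fold changes from -0.22 to 0.04. Kcnab1, a beta subunit that speeds Kv1 inactivation, had the smallest p of its group. It ranged from 122 to 142 CPM after SNI (median 128) and from 136 to 174 CPM after sham (median 145). The groups overlapped at their edges, and the log2 fold change was -0.21 (SE 0.06, adjusted p = 0.150). Kcna1 ranged from 452 to 623 CPM (median 556) against 546 to 746 CPM (median 626), and Kcna2, the partner of Kcna1 in axonal channels, from 106 to 146 CPM (median 124) against 128 to 170 CPM (median 138). Their log2 fold changes were -0.20 and -0.22, with adjusted p of 0.384 and 0.317.

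Kcns3, an electrically silent subunit that modifies Kv2 channels, was the member with the second smallest p. It ranged from 14.5 to 17.9 CPM after SNI (median 15.6) and from 16.8 to 22.5 CPM after sham (median 18.7). The groups overlapped between 16.8 and 17.9 CPM, and the log2 fold change was -0.26 (SE 0.08, adjusted p = 0.131). Kcnb2, a Kv2 subunit, stood at -0.15.

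The remaining voltage-gated groups stayed within small intervals. Kcnc2, a Kv3 subunit of fast-spiking neurons, ranged from 68.9 to 96.7 CPM after SNI and from 70.6 to 86.4 CPM after sham (medians 80.9 and 80.3). The 3 Kv3 genes lay between 0.01 and 0.04 on the log2 scale. Kcnip4, a calcium-binding KChIP subunit of Kv4 channels, ranged from 35.5 to 53.2 CPM against 43.8 to 50.4 CPM (medians 42.4 and 47.5), with a log2 fold change of -0.13 (adjusted p = 0.331). The 6 Kv4 and KChIP genes lay between -0.13 and 0.07. Kcnh1, an ether-a-go-go channel gene, ranged from 33.9 to 36.6 CPM against 31.3 to 37.5 CPM. Kcnq5, a subunit of the slow M current, ranged from 18.7 to 25.8 CPM against 18.6 to 22.4 CPM. In each of these genes the SNI and sham libraries overlapped.

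Inward rectifier, calcium-activated and HCN genes also had no call. Kcnj3, a Kir subunit opened by G proteins, ranged from 77.2 to 94.6 CPM after SNI and from 89.3 to 96.0 CPM after sham, with 31.1% of its exon length overlapped on the other strand by Gm26794. Kcnj6 ranged from 9.13 to 16.4 CPM against 10.5 to 13.8 CPM. Kcnn2, a small-conductance calcium-activated channel, ranged from 31.7 to 38.5 CPM against 31.9 to 33.9 CPM, a log2 fold change of 0.09 (adjusted p = 0.522). Hcn3 ranged from 14.7 to 22.1 CPM against 15.1 to 18.6 CPM, and Hcn2 from 204 to 368 CPM against 281 to 392 CPM. The SNI and sham ranges overlapped in all 5, and the 3 HCN genes lay between -0.10 and 0.10. Strand use in counting is not stated, so reads of Kcnj3 and of Hcn3 (17.1% overlapped by Pklr) cannot be told apart from those of the antisense gene. The same holds for Kcna6 (39.6%, Gm26673), for Kcnk2 (12.2%, A430027H14Rik) and, with smaller overlaps, for some other members.

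**Figure D3:**
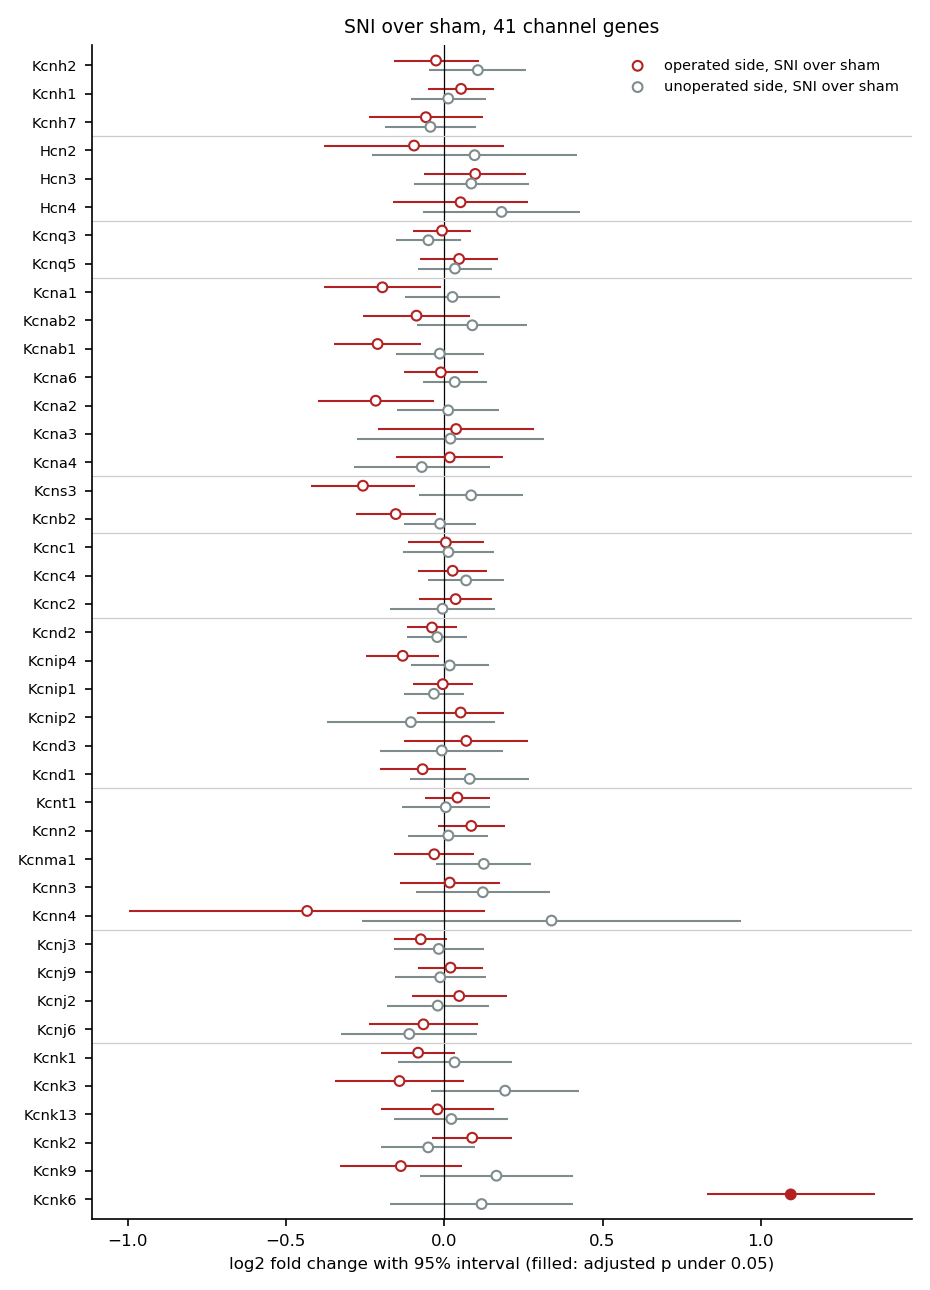
Log2 fold change of SNI over sham (horizontal axis) with its 95% interval for the 41 channel genes, in red for the operated and in grey for the unoperated side, with grey lines between role groups. The filled point is Kcnk6 on the operated side (1.09), the only adjusted p under 0.05, and most other intervals include 0.

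On the unoperated side, SNI against sham asks whether the injury reached channel genes across the midline. With limma 0 of 41 members were called, where 0.0% of 17580 genes were called, and 0 members had an unadjusted p under 0.05. The voom method also called 0. Log2 fold changes lay between -0.11 and 0.34, the highest being Kcnn4. Kcnk6 stood at 3.18 ± 0.589 CPM after SNI and 2.92 ± 0.462 CPM after sham (SD, n = 6 each), a log2 fold change of 0.12 (95% interval -0.17 to 0.41). For all 41 members the interval lay within a 2-fold change, and for 40 within a 1.5-fold change, again except Kcnn4.

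The operated and unoperated sides of SNI mice differed in more members. Of 41, 9 were called, or 22%, where 6.72% of all 18058 genes were called. Of these, 3 were higher on the operated side, Kcnk6, Kcnip1 and Kcnip2, where 3.49% of all genes were higher, and 6 were lower, Kcna1, Kcna2, Kcnab1, Kcnab2, Kcnk3 and Kcns3, where 3.22% were lower. Without TMM scaling 9 members were also called, 4 of them higher, and 802 of 1157 called genes were higher, in place of 631 of 1213. The comparison shares the operated SNI libraries with the one above. In sham mice the same contrast of sides called 0 of 41 with limma and 0 with voom, where 0.0% of all genes were called. There 5 members had an unadjusted p under 0.05, or 12.2%, against 4.06% of all genes. They were Kcnip1 (log2 difference 0.11), Kcnk13 (0.22), Kcns3 (-0.18), Kcnk6 (0.28) and Kcnd2 (0.08). Kcnip1, Kcns3 and Kcnk6 had the same sign as in their calls after SNI.

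Of the Kv1 and beta subunit group, 4 of 7 members, Kcna1, Kcna2, Kcnab1 and Kcnab2, were lower on the operated side and 0 higher. Kcna1 ranged from 452 to 623 CPM on the operated side of SNI mice and from 632 to 889 CPM on the unoperated side (medians 556 and 675). All 6 operated libraries stood below all 6 unoperated ones, and the log2 difference was -0.37 (SE 0.08, adjusted p = 0.00834). Kcna2 ranged from 106 to 146 CPM against 141 to 189 CPM (medians 124 and 158), overlapping in female operated library 3, with a log2 difference of -0.35 (adjusted p = 0.0163). Kcnab1 ranged from 122 to 142 CPM against 140 to 198 CPM (medians 128 and 152), with a log2 difference of -0.29 (adjusted p = 0.0120). Kcnab2 ranged from 391 to 520 CPM against 498 to 702 CPM (medians 489 and 553), with a log2 difference of -0.29 (adjusted p = 0.0465). The last 3 genes overlapped between sides at the edges of their ranges, and the Kcnab2 call was lost in 17 of 23 alternatives. The other 3 members of the group, Kcna3, Kcna4 and Kcna6, were not called and stood at 0.02, 0.13 and 0.01.

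Kcns3 and Kcnk3 were lower as well. Kcns3 ranged from 14.5 to 17.9 CPM on the operated side and from 20.5 to 27.7 CPM on the unoperated side of SNI mice (medians 15.6 and 22.3), a log2 difference of -0.52 (SE 0.08, adjusted p = 1.60e-04). Kcnk3 ranged from 21.6 to 30.7 CPM against 31.3 to 48.4 CPM (medians 28.5 and 33), a log2 difference of -0.42 (SE 0.11, adjusted p = 0.0229). Neither gene overlapped between the sides, in the same libraries that gave the calls. In sham mice the side difference was -0.18 in Kcns3 and -0.09 in Kcnk3, with overlapping ranges of 16.8 to 22.5 against 18.7 to 23.6 CPM and of 24.9 to 33.9 against 27.9 to 41 CPM.

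Of the KChIP genes, 2 went the other way. Kcnip2 ranged from 28.5 to 40.9 CPM on the operated side and from 17.7 to 33.4 CPM on the unoperated side of SNI mice (medians 33.5 and 29.5), a log2 difference of 0.36 (SE 0.10, adjusted p = 0.0364). Kcnip1 ranged from 57.8 to 75.2 CPM against 53.3 to 63.6 CPM (medians 66.5 and 60.4), a log2 difference of 0.14 (SE 0.04, adjusted p = 0.0450). Both genes overlapped widely between sides, and their calls were lost in 15 (Kcnip2) and 16 (Kcnip1) of 23 alternatives. The 2 lowest libraries in Kcnip2, at 18.8 and 17.7 CPM, were female SNI libraries 2 and 3 of the unoperated side, the same that were highest in Kcna1 and Kcnk3. Kcnk6 had a log2 side difference of 1.26 (SE 0.13, adjusted p = 6.30e-07).

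**Figure D4:**
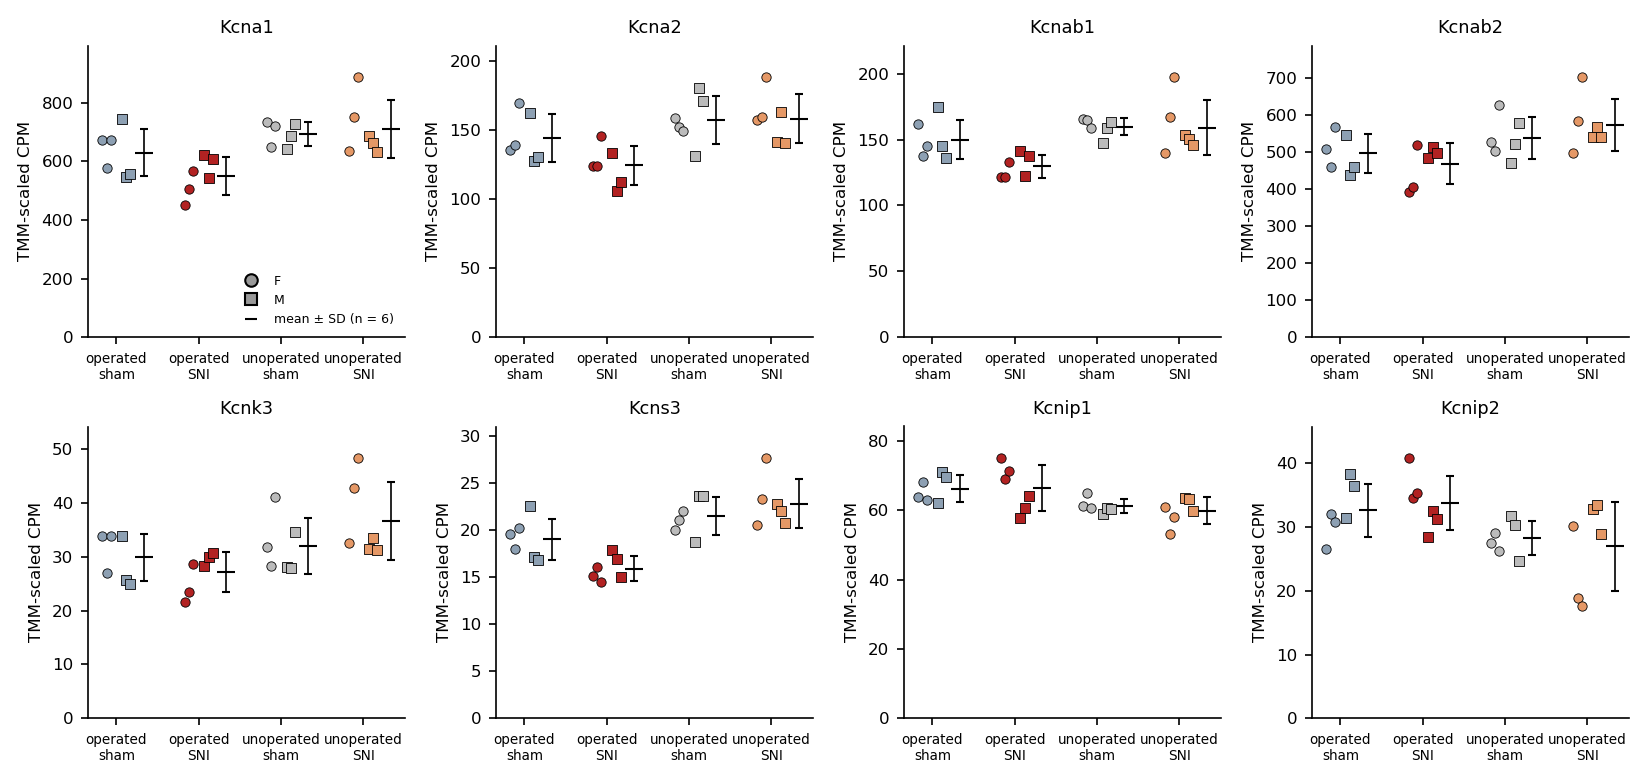
TMM-scaled CPM (vertical axes from 0) of the 8 members other than Kcnk6 that differed between the sides of SNI mice, by side and surgery, with circles for female and squares for male libraries and bars for mean ± SD (n = 6). Kcna1, Kcnk3 and Kcns3 do not overlap between the operated and unoperated SNI libraries, and the other 5 genes do. The 8 were chosen by their calls in these same libraries, so a lack of overlap is no further support. The share of all genes without overlap was not counted.

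Some neuronal marker transcripts moved with this contrast, and their part in the result was not tested. The covariate fits given below describe how the calls moved and cannot separate that part from side. Of 12 motor neuron markers (13 symbols, Mnx1 also entered as Hb9), 6 were lower on the operated side of SNI mice and 0 higher. The median log2 difference of the 12 was -1.29, and none was at 0. Their summed level was 471 to 1269 CPM on the operated and 1147 to 2230 CPM on the unoperated side of SNI mice, and 755 to 1836 and 834 to 1583 CPM in sham mice. Of 14 excitatory dorsal horn markers, 4 were higher and 0 lower, with summed levels of 602 to 811 and 520 to 715 CPM after SNI. Over all genes 3.49% were higher and 3.22% lower. Inhibitory dorsal horn markers summed to 1329 to 1651 CPM on the operated and 1416 to 1704 CPM on the unoperated side of SNI mice. Pan-neuronal markers summed to 8553 to 10420 and 10290 to 14520 CPM. Chat, which marks cholinergic neurons, had a log2 difference of -1.49 (adjusted p = 0.0194).

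Several of these members followed the same markers among libraries of a group. With group means removed, Kcna1 had r = 0.65 with the motor neuron and -0.87 with the excitatory dorsal horn level over 24 libraries, Kcnk3 had 0.68 and -0.74, and Kcnip2 had -0.66 and 0.89. The values for Kcns3 were 0.35 and -0.68. Over the 41 members, the within-group r with the pan-neuronal list correlated at -0.63 with the log2 side difference in SNI, and at -0.81 over the 40 without Kcnk6. For the motor neuron list the values were -0.48 and -0.73, and for the excitatory list 0.58 and 0.79. The marker lists themselves were related, the motor neuron and excitatory levels at r = -0.70, and all these values share the same libraries. The members vary together over these libraries and are not independent points, so the correlations across members are a description and test no cause.

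With the motor neuron level as a covariate, 1 of the 9 members stayed called, Kcnk6, with a log2 side difference of 1.28. Kcna1 then stood at -0.14 (adjusted p = 0.661), Kcnk3 at -0.11 (0.815), Kcnip2 at 0.07 (0.882) and Kcns3 at -0.40 (0.0534). Kcna2 stood at -0.32, near its -0.35 without the covariate, while its SE went from 0.09 to 0.12 (limma adjusted p = 0.330). Within SNI mice the motor neuron level also differed between the sides, so its part and that of side cannot be told apart. With the excitatory dorsal horn level as a covariate, 2 stayed called, Kcnk6 at 1.21 and Kcns3 at -0.34 (adjusted p = 0.0207). In that fit Kcna2 stood at -0.21 (limma adjusted p = 0.576), Kcna1 at -0.13, Kcnk3 at -0.16 and Kcnip2 at 0.06. The calls over all genes went from 1213 to 363 with the motor neuron and to 309 with the excitatory covariate. The count also moved with single libraries. Of the unoperated side, leaving out female SNI library 1 gave 16 calls (2114 over all genes), and female SNI library 2, the highest in the mean log2 motor neuron level, gave 5 (940). Female SNI library 3 gave 4 (618) and male SNI library 2 gave 5 (846). Of the operated side, leaving out female SNI library 1 gave 5 (914 over all genes) and female SNI library 2 gave 4 (695). Without the 8 libraries titled 49 to 56, in which a larger share of reads fell on genes, 1 was called (174 over all genes).

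**Figure D5:**
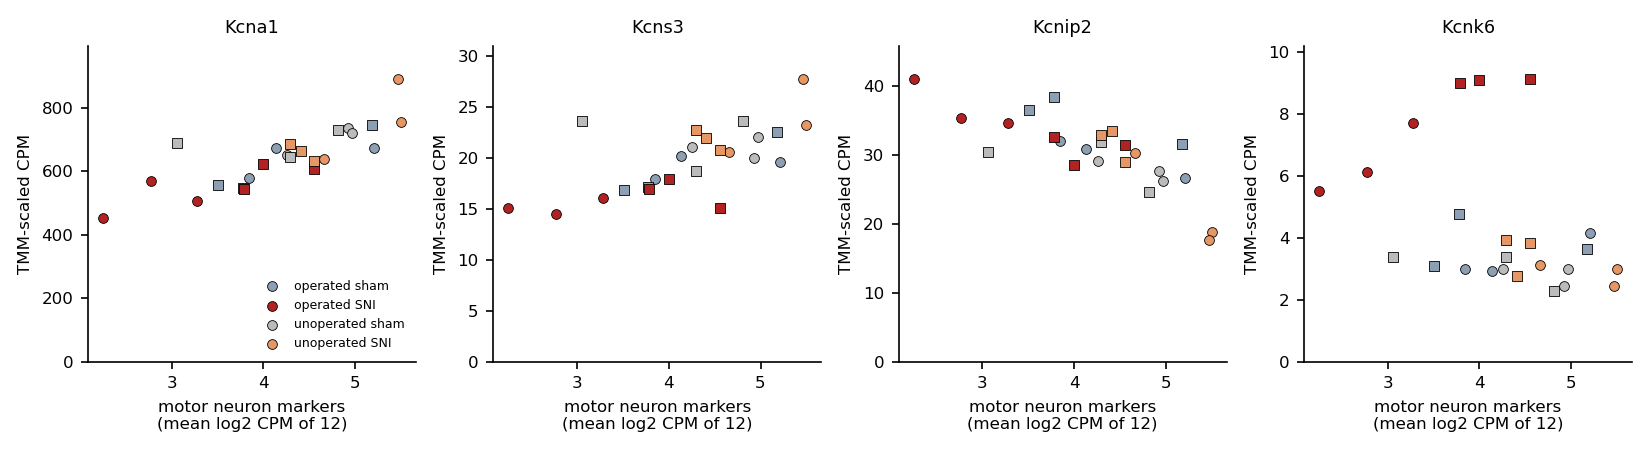
TMM-scaled CPM (vertical axes from 0) of Kcna1, Kcns3, Kcnip2 and Kcnk6 in 24 libraries against the mean log2 CPM of 12 motor neuron markers (horizontal axis), coloured by side and surgery, with circles for female and squares for male libraries. Kcna1 is higher and Kcnip2 lower where the markers are higher, while Kcnk6 is higher in the 6 operated SNI libraries, whose marker levels run from 2.25 to 4.56, than in any other library.

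Whether the side difference itself depended on surgery was tested by the interaction of side and surgery. It called 1 of 41 members, where 0.631% of 18058 genes were called. Kcnk6 had an interaction of 0.98 on the log2 scale (SE 0.19, adjusted p = 0.00733), which was 0.79 (adjusted p = 0.907) without libraries 49 to 56. The next smallest p was that of Kcns3, at -0.34 (SE 0.11, adjusted p = 0.404). For Kcna1, Kcna2, Kcnab1, Kcnab2, Kcnk3, Kcnip1 and Kcnip2, called after SNI and not after sham, the interaction was not called (adjusted p from 0.867 to 0.999), so a difference between SNI and sham in their side contrast was not shown.

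The response on the operated side was also compared between sexes. With limma 0 of 41 members had a called sex by surgery interaction, where 0.0% of 17602 genes were called, and voom called 0. At an unadjusted p under 0.05 there were 14 members, or 34.1%, against 10.3% of all genes, with a lowest adjusted p of 0.415. In 11 of the 14 the change was more positive in females, and in 10 it was above 0 in females and below 0 in males. Kcnip2 changed by 0.31 in females and -0.21 in males, an interaction of 0.52 (SE 0.13, adjusted p = 0.415). Kcnj6 changed by 0.24 and -0.37, an interaction of 0.61 (SE 0.16, adjusted p = 0.415). For Kcnk6 the interaction was -0.31 (SE 0.25, adjusted p = 0.648), and the male SNI libraries, at 9.01 to 9.13 CPM, stood above the female ones, at 5.51 to 7.72 CPM.

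The motor neuron level differed between the sexes in the same libraries. Its mean log2 CPM was 2.25 to 3.28 in the 3 female and 3.79 to 4.56 in the 3 male SNI libraries of the operated side, and 3.85 to 5.21 and 3.51 to 5.18 in the sham libraries. With that level as a covariate, 1 member had an unadjusted p under 0.05 in place of 14, and the number over all genes went from 1816 to 511 of 17602. In the operated SNI libraries the level did not overlap between the sexes, so its part and that of sex cannot be told apart. Between females and males over all groups, 0 of 41 members were called by limma and 0 by voom, where 0.543% of 18058 genes were called. At an unadjusted p under 0.05 there were 2, or 4.88% against 8.36% of all genes, Kcnip4 at 0.09 and Kcnk6 at -0.26 on the log2 scale (female minus male).

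Other genes of the potassium and HCN channel families were read beside the members. Of 57 symbols listed, standing for 56 genes, 43 were tested. On the operated side 0 were higher and 1 lower after SNI, Kcne1l, an auxiliary subunit gene, at -0.43 (adjusted p = 0.0232), with 5.05 to 7.49 CPM against 6.82 to 9.86 CPM after sham, with overlapping groups. Over all genes tested on the operated side, 2.07% were called. Between the sides of SNI mice 4 of the 43 were lower and 0 higher, where 3.22% of all genes were lower and 3.49% higher. They were Kcnj14, a Kir gene, at -2.27, Kcng4, a silent Kv subunit gene, at -1.08, Kcne1l at -0.49 and Kcnab3, a Kv beta subunit gene, at -0.23. Kcnj14 ranged from 1.90 to 11.4 CPM on the operated and from 9.70 to 28.1 CPM on the unoperated side after SNI, so the sides overlapped.

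Among 17 tested genes of channel partners, of 19 listed, Kctd12, an auxiliary subunit of GABA-B receptors, rose on the operated side. It had 105 to 121 CPM after SNI and 85.1 to 95.4 CPM after sham, a log2 fold change of 0.38 (SE 0.04, adjusted p = 5.58e-05), with no overlap. The other 16 partners were not called on the operated side, where 2.07% of all genes were called. Between the sides of SNI mice Kctd12 differed by 0.44 and Abcc8, the sulfonylurea receptor subunit of ATP-sensitive potassium channels, by -0.22. Kctd12 was also called in the side by surgery interaction (0.38, adjusted p = 6.16e-04), together with Kcnk6 among the members.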

How the data were processed

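The deposited tables hold, for each library, the number of reads that the authors counted on each gene, with no normalization. Their number column could not be read as counts by the format check, because the tables are tab-separated under a comma file type, so it was recorded as another unit and a count model was not run. Per the submitters' processing notes, STAR was used and the builds include GRCm38 and mm10. How reads were assigned to genes, including strand use and the annotation, is not given in the sources used here. The entries that name no gene were left out of library sizes and tests. They held 12.3% to 15.8% of reads in no feature, 9.92% to 12.8% without a unique position and 0.370% to 0.418% ambiguous.

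Library sizes were scaled by TMM (trims of 30% and 5%, factors 0.942 to 1.03). A gene entered the tests with about 10 counts in at least 3 libraries and 15 counts in total. Log2 CPM with a prior count of 2 was tested in limma 3.58.1 (R 4.3.3) with a mean-variance trend and robust moderation. Tests were two-sided, with Benjamini-Hochberg adjustment over all genes and calls at an adjusted p under 0.05. SE is the model's standard error and intervals are 95%. The statistics script was tested on simulated data. Single-side comparisons used 12 libraries and the others all 24, with group means for sex, side and surgery. A fold change understates genes with few reads.

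The members, marker lists and tests were chosen with earlier results of these data known. Values are given for members called in any comparison, the smallest operated-side p in each role group, the 3 highest and lowest levels per kb and the 3 widest ranges above 1 CPM. Kcnk13, Kcnb2 and Kcnk1 were named outside this rule, after their values were seen. Positions, exon lengths and coding sequences are those of GENCODE M21 on GRCm38. The pore search used these coding sequences in place of a protein table, which was not used here, and some of the sequences found are not reported here. Marker levels are the mean log2 CPM of a list's tested genes. Libraries within a group differed by 6.10 to 31.4 chi-square units per degree of freedom over 24 pairs, so none was treated as a duplicate. Alternatives were voom, median-of-ratios scaling, total reads, a prior count of 0.5, no filter, moderation without robustness, covariates, and leaving out libraries. Rat libraries were not analysed here. Tables and figures were made with matplotlib 3.10.9, pandas 2.3.3 and numpy 2.4.6 in Python 3.11.15.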

Additional observations from a re-analysis of the deposited data

Results flagged for a closer look

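Kcnk6 differed between the surgeries in its side contrast. The interaction of side and surgery was 0.98 on the log2 scale in limma, with all 6 operated SNI libraries above all other libraries. Microglia markers moved the same way, and their part was not tested.

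In 19 members named by rule, each in 4 groups of 6 libraries, 2 of 76 groups held a library flagged as apart from the others. That is fewer than the about 1 in 20 that chance gives. Kcnab1 was lowest in male sham library 1 of the unoperated side, at 147 CPM in a group of 160 ± 6.76 CPM (mean ± SD, n = 6). Kcnc2 was lowest in female SNI library 2 of the unoperated side, at 62.8 CPM in a group of 77.8 ± 7.84 CPM. That library was the highest in the mean log2 level of motor neuron markers.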

How the results depend on the processing

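No paired analysis was possible because the labels give no replicate numbers and tie no libraries to an animal. The numbered titles alternate between the sides, and no pairing was taken from that order. Kcnk6 kept its operated-side call in 23 of 24 alternatives (log2 fold change 1.02 to 1.26) and its side call after SNI in 23 of 23. Each count holds a repeated fit, because leaving out the library highest in a marker level equalled leaving out that library alone. Without the libraries titled 49 to 56, which left 3 SNI and 5 sham libraries on the operated side, its change was 1.07 with an adjusted p of 0.0667. The count then fell to 0 members on the operated side, to 1 between the sides of SNI mice and to 0 in the interaction (0.79, adjusted p = 0.907). Over all genes the calls were then 78, 174 and 32. In libraries 49 to 56 themselves, Kcnk6 stood at 9.01, 9.13 and 6.13 CPM in operated SNI and 2.92 CPM in the operated sham library.

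The 9 calls between the sides of SNI mice became 1 with the motor neuron covariate, 2 with the excitatory covariate, which was chosen after seeing the data, and 5 without the library highest in the mean log2 motor neuron level. Over all genes the calls went from 1213 to 363, 309 and 940 in these settings. Leaving out each library gave 4 to 16, with 618 to 2114 over all genes. Calls were lost most often for Kcnab2 (17 of 23 alternatives), Kcnip1 (16) and Kcnip2 (15), and least often for Kcnk6 (0), Kcns3 (2), Kcna1 (3) and Kcnab1 (3); no sign changed in these 9.

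On the operated side, uncalled changes crossed 0 with the motor neuron covariate in Hcn2 (0.0073), Hcn3 (-0.0609), Kcnc2 (-0.0826), Kcnip2 (-0.0783), Kcnk3 (0.0322) and Kcnq5 (-0.0040). Kcnip1 crossed 0 with total reads (0.0175) and in 5 of the fits that left out a single library (-0.0314 to 0.0142 over all such fits). Kcnj6 crossed 0 without libraries 49 to 56 (0.0294). Kcnc2 crossed 0 on leaving out female sham library 1 of the operated side (-0.0045, with 0.067 the highest value over all such fits). Leaving out the libraries highest in neutrophil markers, chosen after seeing the data, was that same fit on the operated side. Median-of-ratios scaling moved mean levels by less than 1%. Kcnn4, with as few as 8 reads, is limited by depth.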
